A study of Mus musculus with 12 samples.

Results

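The carbonic anhydrases are described here in mouse liver: 8 genes, Car1, Car2, Car3, Car4, Car5a, Car8, Car13 and Car14, of the 30145 genes that had a feature of their own symbol on the array. The members are the array features that carry those symbols, and each of the 8 genes had 1 feature. They were chosen with the knockout against wild-type values of these livers known, so those values are given below as a description: no p-value is printed for them, and calls of a fit to all features are counted only beside the share of all features called. Livers of 12 mice of the C57BL6/J strain, aged 12 weeks, were profiled on 1 array each. Of these, 6 were wild type (WT, genotype ENT3 +/+) and 6 were knockout (KO, genotype ENT3 -/-) for ENT3, an equilibrative nucleoside transporter encoded by Slc29a3 and found mainly in lysosomal and mitochondrial membranes. Each genotype held 3 mice whose titles end in M and 3 whose titles end in F, read as male and female because the study states that its groups were matched for gender. The sources used here do not say how the gene was disrupted or in which cells. Mice are called by group and animal number.

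Carbonic anhydrases catalyse the reversible hydration of carbon dioxide to bicarbonate and a proton, with a zinc ion in the active site. Family members differ in where they act: Car1, Car2, Car3 and Car13 are cytosolic, Car5a is mitochondrial, Car4 is anchored to the outer cell surface and Car14 spans the membrane. Car8 keeps the fold of the family but has lost the catalytic activity, and is known as a partner of the inositol trisphosphate receptor. In liver the mitochondrial enzyme provides bicarbonate to carbamoyl phosphate synthetase, the entry to the urea cycle, and to pyruvate carboxylase. Car3 is a weak carbon dioxide hydratase that is abundant in liver, skeletal muscle and fat.

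Values are deposited log2 signals, and a difference of 1 is a doubling on that scale. The array medians lay between 3.76 and 3.89. Every array shared the same highest value, 19.93, which no member reached. The array's negative control features mark its background: their 95th percentile lay between 6.20 and 6.83, and a gene at or below it on an array is called within the negative controls. Slc29a3, the targeted gene, lay at 4.10 to 4.19 in the 6 KO livers and at 4.82 to 5.29 in the 6 WT livers, all within the negative controls, and was lower in KO by -0.94 ± 0.07 (SE; limma adjusted p = 0.000324). The spikes of poly-A RNA that are added before labelling averaged 5.10 to 6.06 in KO and 5.98 to 6.81 in WT arrays, and KO male 19 had the highest of the KO values. This average lay below the 95th percentile of the negative controls on every KO and WT female array, and above it on the WT male arrays. The spread between 3 mice per group sets the precision throughout, and all differences below are KO minus WT, or female minus male, with the standard error (SE) of a limma fit to all 12 arrays.

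Car3 (gene ID 12350) had the largest difference of the 8 members. In WT males its log2 signal was 15.50, 16.97 and 16.24 in mice 17, 23 and 33. In WT females it was 16.06, 15.25 and 16.04 in mice 25, 27 and 38. The KO females lay far below, at 9.11, 9.36 and 8.88 in mice 13, 40 and 69. In KO males the signal was 11.53 in mouse 18, 16.06 in mouse 19 and 12.23 in mouse 39. All 3 KO females and KO males 18 and 39 thus lay below every WT liver, while KO male 19 lay inside the WT range. The difference was -6.67 ± 0.95 in females, which is 102-fold on the deposited scale, and -2.97 ± 0.95 in males, or 7.82-fold. Car3 remained above the negative controls on all 12 arrays. These are RNA levels of whole liver, in which fewer cells of a type and less RNA per cell cannot be told apart.

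Car5a (gene ID 12352), the mitochondrial enzyme, was lower in each of the 6 KO livers than the WT mean of its sex. WT males 17, 23 and 33 had 10.52, 11.68 and 11.11, and WT females 25, 27 and 38 had 10.56, 9.37 and 11.27. KO males 18, 19 and 39 had 8.88, 8.40 and 10.40, and KO females 13, 40 and 69 had 6.84, 6.85 and 7.14. KO and WT did not overlap within either sex, but KO male 39 lay above WT female 27. The difference was -3.46 ± 0.56 in females and -1.87 ± 0.56 in males (3.67-fold). The KO females lay just above the negative controls' 95th percentile of their own arrays.

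Car8 (gene ID 12319), the member without catalytic activity, was the 1 gene of the 8 whose 6 KO values all lay below all 6 WT values. WT livers ran from 10.74 to 11.51 in males and from 10.88 to 11.61 in females. KO males 18, 19 and 39 had 10.38, 9.43 and 10.50. KO females lay between 8.99 and 9.19, below every KO male. No overlap of this kind held for 1.94% of all features with KO below WT and for 1.97% with KO above. The difference was -2.10 ± 0.31 in females (4.28-fold) and -1.11 ± 0.31 in males (2.16-fold).

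Car14 (gene ID 23831), the membrane-spanning enzyme, followed Car3 more closely than Car5a in the KO males. WT males 17, 23 and 33 had 7.23, 8.63 and 8.13, and WT females 25, 27 and 38 had 6.66, 7.38 and 7.18. KO males 18 and 39 had 6.39 and 6.40, and KO male 19 had 7.71, inside the WT male range. KO females 13, 40 and 69 lay together at 5.47, 5.52 and 5.50, all within the negative controls. KO males 18 and 39 were within them too, so of the KO livers only KO male 19 was above. The fitted difference, which rests on those background values, was -1.57 ± 0.41 in females and -1.16 ± 0.41 in males. Because the KO females were within the negative controls, only a bound holds for them: WT females were at least 1.25-fold higher, measured against the 95th percentile of the negative controls on the KO arrays (group means 7.07 and 5.50).

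**Figure D1:**
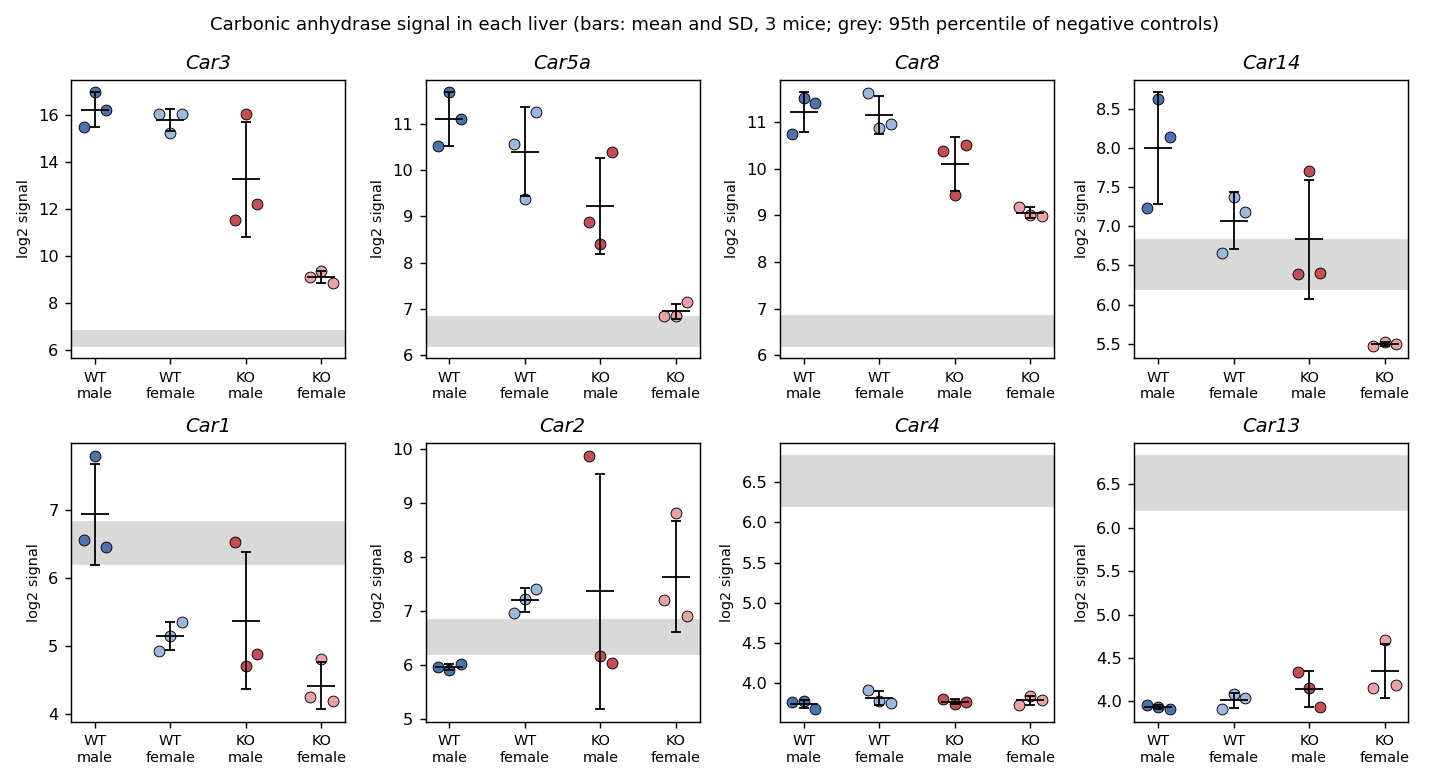
Log2 signal of each of the 8 carbonic anhydrases (vertical axis, own scale in each panel) in the 12 livers, in 4 groups of 3 mice. Points are mice, black bars are the group mean and SD, and the grey band spans the 95th percentiles of the negative controls on the 12 arrays, 6.20 to 6.83; Car3, Car5a and Car8 lie above the band, whereas Car4 and Car13 lie under it in every mouse.

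The KO livers were not low in the same members to the same degree. Against the WT mean of its sex, KO male 19 was at -0.18 for Car3 and -0.29 for Car14, but at -2.70 for Car5a and -1.78 for Car8, the lowest of the 3 KO males for both of these. KO male 39 showed the reverse order, at -4.01 for Car3 and -1.59 for Car14 and at -0.70 for Car5a and -0.72 for Car8. KO male 18 lay at -4.71, -2.22, -0.84 and -1.61 for Car3, Car5a, Car8 and Car14. The 3 KO females were close to each other, from -6.91 to -6.42 for Car3, -3.56 to -3.26 for Car5a, -2.16 to -1.97 for Car8 and -1.60 to -1.55 for Car14. The SD of Car3 was 2.44 in KO males and 0.24 in KO females (n = 3 each), against 0.74 and 0.47 in WT males and females.

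**Figure D2:**
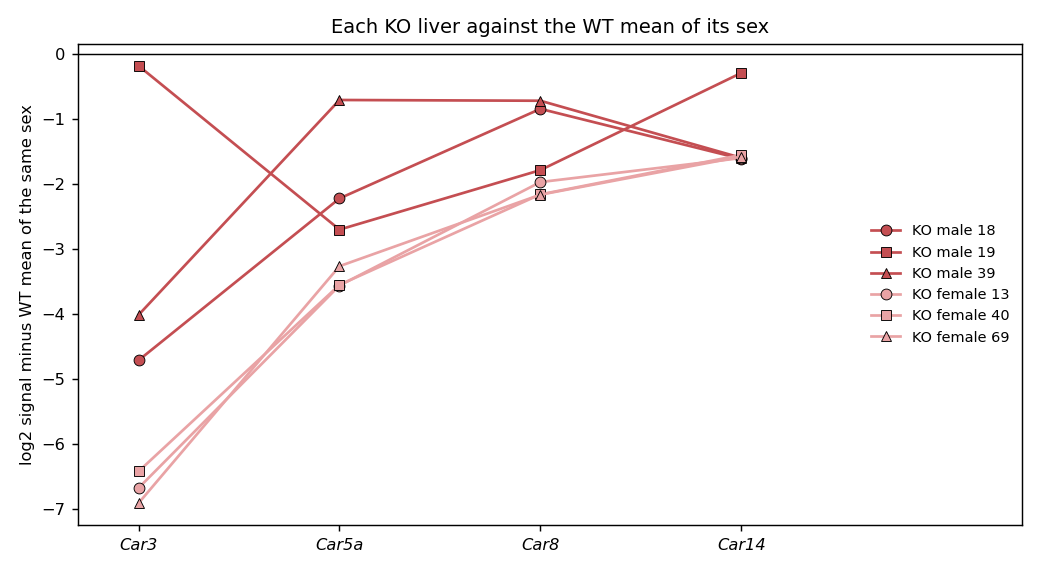
Difference of each KO liver from the WT mean of the same sex (vertical axis, log2) for Car3, Car5a, Car8 and Car14; each line joins the values of 1 mouse. The 3 KO females run together, and KO male 19 is near 0 for Car3 and Car14 but not for Car5a and Car8.

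Over both sexes the differences were -4.82 ± 0.67 for Car3, -2.67 ± 0.40 for Car5a, -1.60 ± 0.22 for Car8, -1.37 ± 0.29 for Car14 and -1.15 ± 0.34 for Car1. They were 0.92 ± 0.63 for Car2, 0.27 ± 0.10 for Car13 and 0.00 ± 0.05 for Car4. At an adjusted p under 0.05, 4 of the 8 members (Car3, Car5a, Car8 and Car14) were lower in KO and none was higher, beside 4.47% of all 65956 features lower and 5.28% higher. Leaving out any 1 mouse kept these 4 calls, and without KO male 18 Car1 joined them. Car14 was not called with no term for sex, without WT female 27 and KO female 40 together, or without KO male 18 and KO female 40 together, where Car1 was called in its place. Within females the same 4 were called as lower and none as higher, beside 3.06% and 3.13% of all features (6.19% in either direction), and within males no member was called, beside 0.506% lower and 0.579% higher (1.09%). In females, KO lay below WT with no overlap for 5 members (Car1, Car3, Car5a, Car8 and Car14), beside 8.35% of all features. In males it did so for 2 (Car5a and Car8), beside 7.49%. The members were chosen on this contrast, so nothing is read from these counts.

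**Figure D3:**
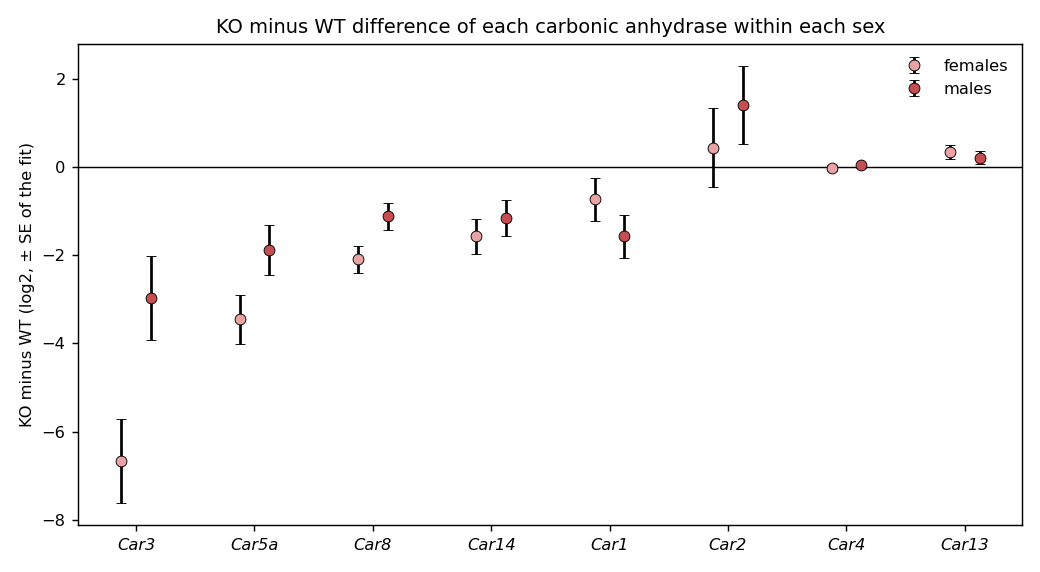
KO minus WT difference (vertical axis, log2) of each of the 8 members in females and in males, 3 mice per group; bars are the SE of the limma fit. Car3 lies at -6.67 in females and -2.97 in males, and Car4 lies at 0 within its error in both.

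For Car5a and Car14 the RefSeq promoter table (build GRCm38.p6) held the 250 bases before the annotated start, printed here 5′ to 3′ on the minus strand because both genes were low in the same KO females. Car4, a member at background level, was the 1 other member of the 8 with an entry. The Car5a window is chr8:121944913-121945162 and the Car14 window is chr3:95904686-95904935.
Car5a: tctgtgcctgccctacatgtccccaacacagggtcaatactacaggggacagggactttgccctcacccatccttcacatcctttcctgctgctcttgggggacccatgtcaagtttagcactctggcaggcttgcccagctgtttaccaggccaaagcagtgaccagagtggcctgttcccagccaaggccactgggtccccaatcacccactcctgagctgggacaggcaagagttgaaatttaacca
Car14: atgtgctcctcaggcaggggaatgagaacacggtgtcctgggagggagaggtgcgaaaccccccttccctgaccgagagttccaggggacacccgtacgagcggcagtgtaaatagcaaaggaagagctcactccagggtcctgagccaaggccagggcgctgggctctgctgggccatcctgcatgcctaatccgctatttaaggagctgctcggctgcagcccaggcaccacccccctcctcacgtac
Both strands were searched for 5 short motifs of liver promoters, and none was found in these windows or in that of Car4, so no letters are in capitals. The motifs were TTCNNNGAA (the palindrome bound by STAT factors, in 7.02% of all 32851 windows of this length), AGGTCA (a nuclear receptor half-site, 14.02%), TTGCNNAA (a C/EBP core, 9.56%), GTTAAT (an HNF1 half-site, 6.43%) and TATAAA (the TATA box, 12.37%). These are letters in a short window and say nothing about binding. The Car5a window had 56.0% G and C and 0 CG pairs, and the Car14 window had 62.0% and 10 CG pairs, beside medians of 52.4% and 6 over all windows.

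Car1 (gene ID 12346), the cytosolic form known from erythrocytes and colon, was near background and was highest in WT males. WT males 17, 23 and 33 had 6.56, 7.81 and 6.46, above the negative controls. WT females 25, 27 and 38 had 4.93, 5.15 and 5.36, KO males 18, 19 and 39 had 6.53, 4.70 and 4.88, and KO females 13, 40 and 69 had 4.24, 4.81 and 4.19, all within them. As a group mean, WT males were at least 1.26-fold higher than KO males (means 6.94 and 5.37) by the bound against the negative controls. That bound rests on WT male 23. WT males 17 and 33 lay below the 95th percentiles on the arrays of KO males 18 and 39, which were 6.67 and 6.74. KO male 18 lay inside the WT male range, and the other KO males below it.

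Car2 (gene ID 12349), the fast cytosolic enzyme of erythrocytes and many epithelia, was high in a pair of KO livers. KO male 18 had 9.88 and KO female 40 had 8.81, above all other mice. The remaining KO livers, at 6.16 and 6.04 in males 19 and 39 and 7.19 and 6.91 in females 13 and 69, differed from the WT mean of their sex by -0.29 to 0.21. WT males had 5.95, 5.91 and 6.02, within the negative controls, and WT females had 6.97, 7.22 and 7.41, above them. The difference over both sexes was 0.92 ± 0.63, and without KO male 18 and KO female 40, left out after seeing the data, it was 0.00 (-0.0025). The same livers had the highest signal of Slc4a1, the erythrocyte anion exchanger known as band 3, at 5.92 and 5.07 against 3.95 to 4.23 in the other KO livers and 3.63 to 3.84 in WT. Slc4a1 stayed within the negative controls on every array.

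The summed erythroid signal was also highest in these livers among the KO mice of their sex. KO female 40 had the highest sum of all 12 livers, and KO male 18 lay below the WT males. With 7 of its 8 genes within the negative controls on every array, the sum can follow 1 gene. Of 8 measured erythroid genes, 1 was higher in KO (Hemgn, 0.33 ± 0.08, limma adjusted p = 0.0221), none was lower and 7 were within the negative controls on every array. Their summed signal was 9.83 in KO male 18 and 10.53 in KO female 40, against 8.88 to 9.22 in the other KO males, 8.93 to 9.01 in the other KO females, 9.96 to 10.01 in WT males and 7.64 to 8.74 in WT females. Of 8 macrophage genes, 7 were higher in KO. Their summed signal was 11.11 to 12.31 in WT males, 11.49 to 12.68 in WT females, 13.64 to 15.90 in KO males and 14.90 to 18.18 in KO females, with KO male 18 and KO female 40 the highest of their groups. Of 8 neutrophil genes, 6 were higher in KO, with summed signals of 7.31 to 8.46 in WT males, 7.81 to 7.92 in WT females, 9.65 to 16.90 in KO males and 15.62 to 16.95 in KO females. Of 11 endothelial genes, 4 were higher and 2 lower in KO, with summed signals of 11.48 to 11.85 in WT males, 11.82 to 12.25 in WT females, 11.22 to 11.91 in KO males and 12.56 to 13.25 in KO females. None of 5 biliary genes was called, and their sums ran from 6.55 to 7.61. Of 7 hepatocyte genes that are male-biased in mouse liver, 3 were lower in KO (median difference -2.36), with sums of 20.81 to 21.01 in WT males, 18.60 or more in WT females, 20.15 to 20.63 in KO males and 13.64 to 19.96 in KO females. The sum of 19.96 was that of KO female 40, near the array ceiling of 19.93, against 13.67 and 13.64 in KO females 13 and 69. This sum too can follow 1 bright gene. Of 6 female-biased hepatocyte genes none was called (median -1.71), with sums of 11.47 to 13.80 in WT males, 17.63 to 18.90 in WT females, 12.96 to 13.76 in KO males and 14.88 to 16.15 in KO females. The part of these cells and genes in the Car2 values, and in the members that were lower in KO, was not tested.

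Car4 (gene ID 12351), the surface-anchored form, and Car13 (gene ID 71934), a cytosolic form, were within the negative controls in all 12 livers. Car4 ran from 3.68 to 3.91 with no separation of the groups. Car13 ran from 3.91 to 4.08 in WT and from 3.94 to 4.71 in KO, highest in KO female 40. All 6 KO values of Car13 exceeded the WT mean of their sex, by 0.003 to 0.70, in a range where the median of the negative controls was itself higher in KO by 0.14.

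The labelled tissue was checked against hepatocyte genes, and Car3, which is abundant in muscle and fat, was set beside markers of those tissues. Alb, Apoa1, Ttr and Fgb, secreted products of hepatocytes, all stood at the ceiling of 19.93, and none of the 5 hepatocyte genes measured was within the negative controls. Skeletal muscle genes were high in WT female 27 and KO female 40, where the summed signal of 11 genes was 9.74 and 9.96, against 7.19 to 7.33 in the other 10 livers. In those 10 livers all 11 were within the negative controls. Car3 was 15.25 in WT female 27, the lowest of the WT livers, and 9.36 in KO female 40, the highest of the KO females. Without both mice, left out after seeing the data, its difference was -5.01. Adipocyte genes (6 measured) had summed signals of 7.42 to 8.19 in WT males, 8.70 to 10.79 in WT females, 7.86 to 9.27 in KO males and 9.81 to 10.09 in KO females, and none was called.

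**Figure D4:**
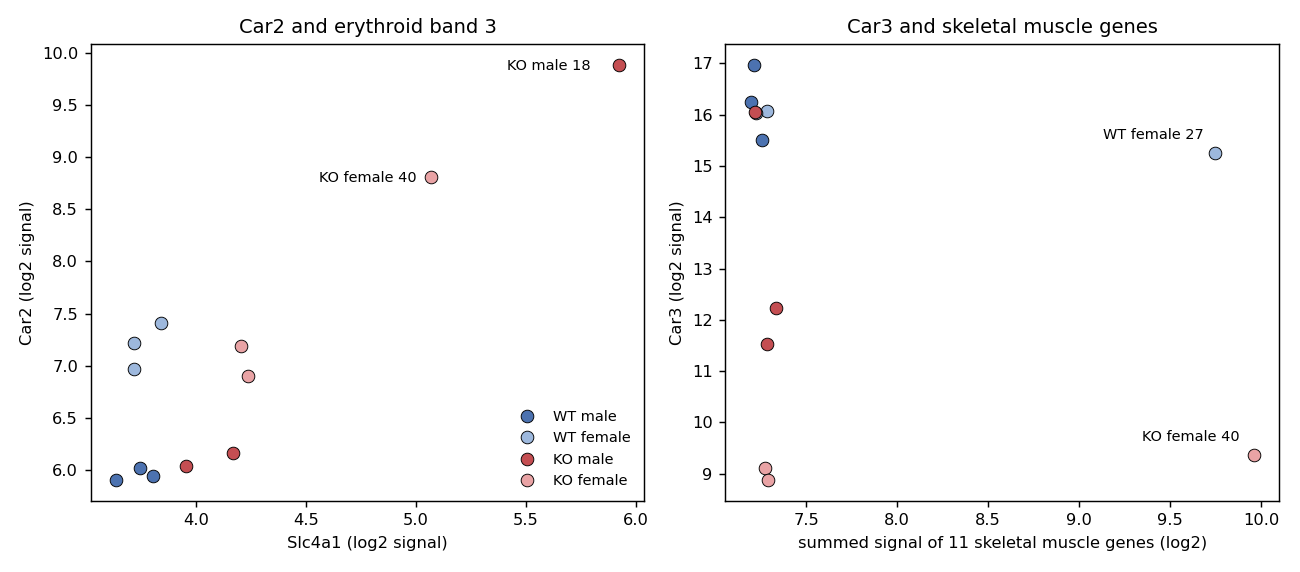
Left, Car2 against Slc4a1 (log2 signals) in the 12 livers; KO male 18 and KO female 40 are highest for both. Right, Car3 (log2 signal) against the log2 summed signal of 11 skeletal muscle genes; WT female 27 and KO female 40 stand apart on the horizontal axis, while Car3 is 15.25 and 9.36 in them (the points of KO male 19 and WT female 38 overlap at 16.06 and 16.04).

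The sexes were then compared, and the contrast averaged over the genotypes was not used to choose the members. Averaged over the genotypes, none of the 8 members passed the limma test for female against male, beside 1.23% of all features (0.623% higher and 0.602% lower in females). At an unadjusted p under 0.05 there were 5 (Car1, Car3, Car5a, Car8 and Car14), all lower in females. Car1 was lower in females by -1.37 ± 0.34 (limma adjusted p = 0.101), Car14 by -1.13 ± 0.29 (adjusted p = 0.106) and Car5a by -1.49 ± 0.40 (adjusted p = 0.126). Car3 differed by -2.31 ± 0.67 (adjusted p = 0.162) and Car8 by -0.55 ± 0.22 (adjusted p = 0.313). Over the 10483 features above the negative controls on at least 3 arrays, 1399 were called. Among them were Car5a and Car14 (limma adjusted p = 0.0464 and 0.0393) and Car1. Car1 entered that set only through the 3 WT males, the group where it was highest, so nothing is read from its call. Without KO male 19, Car3 passed at -1.61 (limma adjusted p = 0.0377). Without KO male 19 and WT female 38, Car3 and Car5a passed (limma adjusted p = 0.043 and 0.0493). KO male 19 had a Car3 value far from those of the other KO males, so leaving it out narrows the spread of Car3. Nothing is read from the calls made without KO male 19. Without KO male 18 and KO female 40, Car2 was called, higher in females by 1.10. Those mice had the highest Car2 and were left out after seeing the data. That narrows the spread of Car2, so nothing is read from this call.

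Among WT livers alone, Car14 differed between females and males by -0.93 ± 0.41. Car3 differed between WT females and WT males by -0.46 ± 0.95, Car8 by -0.06 ± 0.31 and Car5a by -0.70 ± 0.56. Car1 differed by -1.80 ± 0.49 and Car2 by 1.24 ± 0.89, and in both the 3 WT females and 3 WT males did not overlap. Females lay below males with no overlap for 1 member, Car1, beside 6.15% of all features, and above them for 1, Car2, beside 5.88%. By the bound against the negative controls, WT males were at least 1.57-fold higher than WT females for Car1 (means 6.94 and 5.14) and WT females at least 1.80-fold higher than WT males for Car2 (means 7.20 and 5.96). None of the 8 passed in WT alone (lowest limma adjusted p = 0.416, with 2 members, Car1 and Car14, at an unadjusted p under 0.05), beside 0.206% of all features (0.167% higher and 0.0394% lower in females). Among KO livers, Car3 was lower in females by -4.16 ± 0.95 (limma adjusted p = 0.0831) and Car5a by -2.29 ± 0.56 (adjusted p = 0.102). None passed in KO livers alone, beside 0.898% of all features (0.365% higher and 0.532% lower in females), with 4 members (Car3, Car5a, Car8 and Car14) at an unadjusted p under 0.05. In each of these 4 the 3 KO females lay below the 3 KO males with no overlap, beside 6.52% of all features. The contrasts within WT and within KO livers share values with the KO minus WT differences of each sex. Those differences were known when the members were chosen, so nothing is read from the p-values or overlaps within 1 genotype. For Car14, the KO females and KO males 18 and 39 were within the negative controls, so its values among KO livers are mostly background.

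The KO minus WT difference was more negative in females for Car3, Car5a, Car8 and Car14, but the difference between the sexes did not pass the test for any member. The interaction, female minus male difference in KO minus WT, was -3.70 ± 1.34 for Car3 (limma adjusted p = 0.65), -1.58 ± 0.80 for Car5a (adjusted p = 0.787) and -0.98 ± 0.43 for Car8 (adjusted p = 0.742). For Car14 it was -0.41 ± 0.57 (limma adjusted p = 0.943), which rests in part on background values in KO livers. None of the 8 passed, beside 0.00152% of all features, and Car3 and Car8 had an unadjusted p under 0.05. The interaction is built from KO minus WT differences that were known when the members were chosen, so nothing is read from its p-values. Without KO male 19 the Car3 interaction was -2.31, and over all settings run its limma adjusted p ranged from 0.332 to 0.838.

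Car13, Car1, Car3 and Car2 lie beside each other on chromosome 3 in the RefSeq gene table (GRCm38.p6), in that order, with a few pseudogenes and a long noncoding RNA among them. Their KO minus WT differences ran from 0.27 for Car13 through -1.15 for Car1 and -4.82 for Car3 to 0.92 for Car2. Of the genes at the edges of the cluster, none passed the limma test: E2f5 was at -0.04 ± 0.09 (adjusted p = 0.828), Rbis at -0.56 ± 0.17 (adjusted p = 0.0627) and A930001A20Rik at 0.10 ± 0.06 (adjusted p = 0.356). Gm5843, a pseudogene between Car13 and Car1, was at -0.98 ± 0.35 (limma adjusted p = 0.115). The pseudogene Gm16399, which overlaps Car1, was lower in KO by -0.79 ± 0.17 (limma adjusted p = 0.015). These flanking genes were chosen by their position in the gene table. Rbis had 2 features, and its value is that of the brighter one, whose own position was not checked. The sources used here do not say whether overlapping genes were told apart by strand. Car14 is also on chromosome 3, away from the cluster, and Car8, Car5a and Car4 are on chromosomes 4, 8 and 11.

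The other 8 carbonic anhydrases with a feature (Car5b, Car6, Car7, Car9, Car10, Car11, Car12 and Car15) lay within the negative controls in all 12 livers. None of the 8 passed for KO against WT in the limma test and 1 had an unadjusted p under 0.05, with a median difference of 0.00 (0.0021) beside 0.05 (0.0478) over all features. That gene was Car5b, the second mitochondrial form, which ran from 5.10 to 6.25 in WT and from 4.83 to 5.10 in KO (-0.45 ± 0.16, limma adjusted p = 0.114). Without WT female 27, the liver with the highest Car5b, 1 of the 8 passed. With arrays centred on their negative controls 2 passed.

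Of the genes that move bicarbonate, protons or carbon dioxide across membranes, 17 were measured, and 14 of them lay within the negative controls on every array, so that their differences say little. By the fit, 1 of the 17 was higher in KO and none lower, beside 5.28% and 4.47% of all features. The median was 0.05, as over all features. The 3 genes above the negative controls in all livers were Slc4a4, the sodium bicarbonate cotransporter, at 0.07 ± 0.22 (limma adjusted p = 0.889), Slc16a1, a proton-linked monocarboxylate transporter, at 0.15 ± 0.24 (adjusted p = 0.774), and Aqp1. Slc16a1, named after its values were seen, was at 0.77 in females and -0.47 in males (interaction 1.24 ± 0.48, limma adjusted p = 0.685). The gene called was Slc4a8, a sodium-driven bicarbonate exchanger, at 3.91 to 4.02 in WT and at most 4.31 in KO (0.21 ± 0.05, limma adjusted p = 0.0315), within the negative controls on every array. The list had no call with quantile normalization or median centring of the arrays, nor when WT male 17, 23 or 33, WT female 27 or 38, KO male 18 or KO female 13 or 69 was left out, and it had 2 without KO female 40. Slc4a1 was at 0.85 ± 0.31 (limma adjusted p = 0.126), the water channel Aqp1 at -0.38 ± 0.16 (adjusted p = 0.188) and the erythroid ammonia transporter Rhag at 0.45 ± 0.21 (adjusted p = 0.223).

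Enzymes that fix bicarbonate were listed together with Hlcs and Btd, which attach and recycle the biotin that carboxylases carry. Of 10 genes measured, 4 fell and none rose, with a median of -0.21 beside 0.05 over all features. By the same fit, 4.47% of all features were lower and 5.28% higher. Pccb and Pcca, the subunits of mitochondrial propionyl-CoA carboxylase, fell by 0.87 ± 0.16 and 0.73 ± 0.16 (limma adjusted p = 0.00756 and 0.0184). Pccb was 11.20 to 12.24 in WT and 10.32 to 11.40 in KO livers. Mccc2 and Mccc1, the subunits of methylcrotonyl-CoA carboxylase of leucine breakdown, fell by 0.43 ± 0.11 and 0.40 ± 0.11 (limma adjusted p = 0.0385 and 0.0436). Mccc1 lay within the negative controls in KO male 18 and KO females 40 and 69, so its difference rests in part on background values. The list had 2 calls in place of 4 when 1 mouse was left out, for WT male 23 or 33, WT female 25 or 38, KO male 18 or 39, or KO female 40 or 69. Cps1, the urea cycle enzyme served by the mitochondrial carbonic anhydrase, stood at the ceiling in all livers and could show no difference.

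Genes of the growth hormone axis were listed because hepatic Car3 is known to depend on growth hormone in rodents. Of 8 measured, 3 fell and none rose, beside 4.47% of all features lower and 5.28% higher, with a median of -0.09. On every array 4 of the 8 lay within the negative controls. Ghr, the receptor, fell by 1.02 ± 0.16 (limma adjusted p = 0.00364), from 8.43 to 9.69 in WT down to 7.17 to 8.88 in KO. Stat5b, the transcription factor it activates, fell by 0.57 ± 0.06 (limma adjusted p = 0.000939), and the third call was its related gene Stat5a (-0.24 ± 0.05, adjusted p = 0.00944), which lay within the negative controls on every array, at 5.33 to 5.81. Stat5b lay at 6.47 to 6.67 in KO females, within the negative controls, and at 7.54 to 7.78 in KO males, beside 7.50 to 7.75 in the 6 WT livers. Cux2 was at 0.18 ± 0.08 (limma adjusted p = 0.184). Also not called were Igf1 at 0.25 ± 0.29, Socs2 at 0.40 ± 0.19, Cish at -0.10 ± 0.14 and Bcl6 at -0.07 ± 0.40. Igf1 was above the negative controls in all livers. Without KO female 40 there were 5 calls in the list, and there were none with no term for sex or with the poly-A spike covariate in the fit.

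The genes whose pattern over the 12 arrays was most like that of Car3 were, in order of Pearson's r, Cyp2j5 (r = 0.97), Uqcrc2, Puf60, Cse1l and Rint1 (0.96 each). With the 4 group means removed, the r over the same 12 arrays was 0.81, 0.77, 0.68, 0.75 and 0.72. In each of the 5, KO male 19 had the highest KO value and lay within the WT range, as for Car3. The genes were picked for their r with Car3 on these same arrays, so the likeness follows from the choice. Within groups Car3 varied most in KO males (SD 2.44), where KO male 19 stood apart. The r with group means removed therefore leans on that mouse. The arrays share genotype and spike level, so these correlations describe the pattern only.

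The poly-A spike level moved with the genotypes and with Car3. With a covariate for that level, a setting written down with the spike difference already known, the KO minus WT difference was -1.18 for Car3, -3.58 for Car5a, -2.30 for Car8 and 0.11 for Car14, and none of the 4 was called. In the same setting 3 of all 65956 features were called, against 6432 without it, or 9.75%. The part of the spike level in the differences of the members cannot be told apart from that of genotype in KO and WT arrays whose levels barely overlap. Under the other scalings run (quantile normalization, and centring on array medians or on negative control medians) all 4 remained lower and called, and Car1 was called as lower as well.

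**Figure D5:**
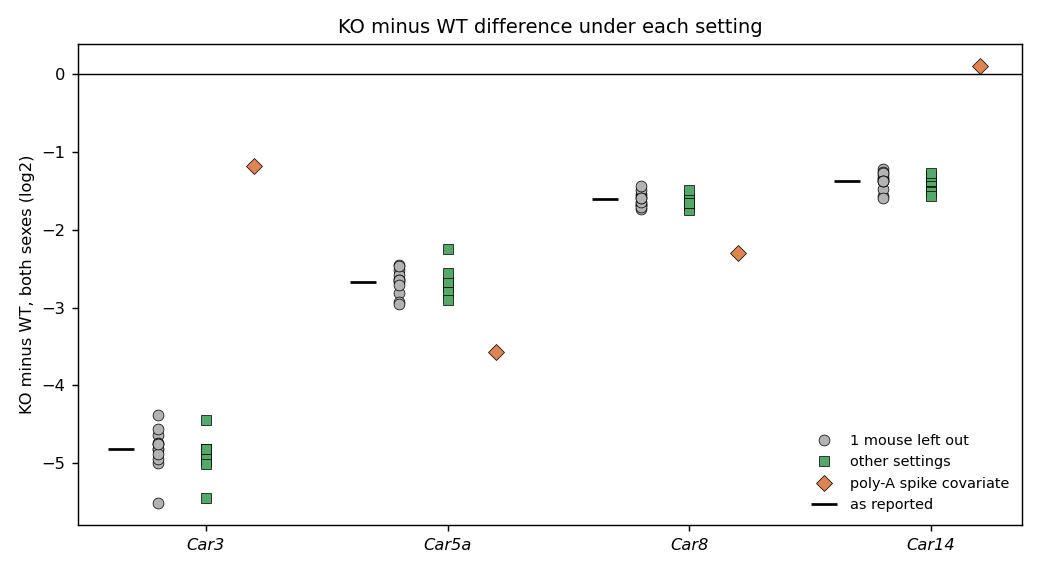
KO minus WT difference over both sexes (vertical axis, log2) for Car3, Car5a, Car8 and Car14, as reported (black bar), with each of the 12 mice left out (circles), under the other settings (squares) and with a covariate for the poly-A spikes (diamond). The circles and squares stay below 0, while the diamond moves Car3 to -1.18 and Car14 to 0.11, and Car5a and Car8 further from 0.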

How the data were processed

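Liver RNA of 12 mice was measured on 1 Affymetrix array each. The values are log2 signals as deposited; the submitters' processing notes name Transcriptome Analysis Console. How background was removed, how arrays were normalized and which genome build was used is not stated in the labels. The 6732 control features were kept out of tests. Symbols came from the platform's probe table: 30604 features had 1 symbol, 2146 several and 33206 none.

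A limma model (version 3.58.1, R 4.3.3) with 4 group means was fitted, and p-values were adjusted by Benjamini-Hochberg over 65956 features, with a threshold of 0.05.

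Members and gene lists were chosen with earlier results of these data known. Genes named are the members, the other carbonic anhydrases, the 4 of smallest p in each pathway list, Slc29a3 and the 5 most like Car3. Some were named after their values were seen. These are genes at the edges of the chromosome 3 cluster, the remaining growth hormone axis genes, Slc4a1 values by mouse and single marker genes.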

Additional observations from a re-analysis of the deposited data

How the results depend on the processing

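No paired analysis was possible because no animal number occurs in more than 1 group. Taking the mean of several features per gene was not run because each member had 1 feature. With the poly-A spike covariate, calls for KO against WT went from 6432 features to 3, from 4 members to 0, from 1 bicarbonate or proton transport gene to 0, from 4 bicarbonate-using enzymes to 0 and from 3 growth hormone axis genes to 0; Car14 turned from -1.37 to 0.11; calls for female against male went from 808 features to 15. Leaving out 1 mouse gave 215 to 1159 features for female against male, lowest without WT female 27, and 4553 to 6599 for KO against WT. It gave 0 to 1 member for female against male, 0 to 2 transport genes, 2 to 4 bicarbonate-using enzymes and 0 to 1 other carbonic anhydrase. The low-signal filter, which left 10483 features, gave 1399 features and 3 members for female against male (Car1 entered only through the WT males) and 0 transport genes. With no genotype term 23 features were called for female against male, and with no sex term 0 transport genes. Quantile normalization gave 0 transport genes and 2 bicarbonate-using enzymes; array median centring gave 0 transport genes; centring on negative controls gave 2 transport genes and 2 other carbonic anhydrases; trend and robust eBayes gave 2 bicarbonate-using enzymes. Without KO male 19 and WT female 38, 2 members were called for female against male and 0 transport genes. The next settings were added after seeing the data. Without WT female 27 and KO female 40, 226 features were called for female against male and 1 bicarbonate-using enzyme; without KO male 18 and KO female 40, 1 member for female against male, 2 transport genes and 1 bicarbonate-using enzyme. Beyond the stated features tested and mice left out, the cause of these changes was not tested. Of 174 values of single members for KO against WT, 166 moved by less than the spread between mice. Some of those could not move. The trend and robust eBayes, the low-signal filter and the fit with no sex term leave the difference itself unchanged. None of 166 interaction values crossed the threshold.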
